A study of Mus musculus with 4 samples.

Results

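The genes described here are 9 interferon-inducible genes of mouse: Mndal, Ifi203, Ifi204 and Aim2 of the p200 family, Ifi27 and Ifi27l2a of the Ifi27 family, and Xaf1, Ifi35 and Ifi44. Members were all probe sets to which the platform annotation gives 1 of these names. This found 17 of 45037 probe sets, for 8 of the 9 genes. Ifi44 has no listed probe set there and was not analysed here. Of the 17, 13 carry 1 gene name, and the other 4 are shared with relatives and are reported apart. The genes were picked for the difference between the genotypes in these arrays, so their signals in vector and Cre cells are a description, without a test.

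Total RNA of immortalized brown preadipocytes, from which brown fat cells form, was hybridized to 4 Affymetrix mouse arrays. All cells came from a mixed C57/BL6-129 background and carried floxed alleles of G9a (Ehmt2), which encodes a histone H3 lysine 9 methyltransferase. Control cells received vector and are labelled wild type (n = 2 arrays), and the others received Cre and are labelled G9a knock out (n = 2 arrays). The labels do not say how Cre was delivered or how many cultures lie behind the arrays, so a p-value measures only the spread between these arrays. Xist, the RNA of the inactive X chromosome, read 11049 and 9810 units in vector 1 and Cre 1 and 41.8 and 58 in vector 2 and Cre 2. The Y-linked Eif2s3y (1417210_at) read 141 and 228 units against 1127 and 1265, so that number 1 and number 2 held different cells. Ehmt2 read 2682 and 2688 signal units in vector 1 and 2 and 953 and 912 in Cre 1 and 2 (probe set 1460692_at), which checks the labels as far as that probe set lies in the deleted part. Array medians lay between 50.6 and 78 units.

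Interferons bind receptors at the cell surface, and a complex of transcription factors that includes IRF9 then binds a DNA element, the interferon-stimulated response element (ISRE), beside the genes they turn on. Proteins of the p200 family carry a HIN domain that binds DNA and, in many members, a pyrin domain that recruits partners. AIM2 uses its pyrin domain to assemble an inflammasome on cytosolic DNA. The Ifi27 family encodes small hydrophobic proteins, XAF1 binds the apoptosis inhibitor XIAP, and IFI35 forms a complex with NMI.

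The p200 genes lie side by side on mouse chromosome 1, and the sequences before their starts show how alike they are. In the RefSeq promoter table (build GRCm38.p6, 250 bases before to 50 after each annotated start), 6 of the 9 genes had a window, 8 windows in all. The promoters were searched on both strands for the ISRE as TTTCNNTTTC, which reads GAAANNGAAA on the other strand. The promoter of Mndal (chr1:173880138-173880437, minus strand) and that of Ifi203 (chr1:173942443-173942742, minus strand) are shown whole because their alignment paired 289 bases, of which 282, or 97.6%, were identical. Capitals mark the ISRE match.
Mndal: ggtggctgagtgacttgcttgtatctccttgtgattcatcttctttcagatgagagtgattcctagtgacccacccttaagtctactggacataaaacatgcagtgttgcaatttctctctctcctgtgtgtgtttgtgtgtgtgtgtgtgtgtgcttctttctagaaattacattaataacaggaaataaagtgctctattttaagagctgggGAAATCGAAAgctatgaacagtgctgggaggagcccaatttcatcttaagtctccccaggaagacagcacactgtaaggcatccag
Ifi203: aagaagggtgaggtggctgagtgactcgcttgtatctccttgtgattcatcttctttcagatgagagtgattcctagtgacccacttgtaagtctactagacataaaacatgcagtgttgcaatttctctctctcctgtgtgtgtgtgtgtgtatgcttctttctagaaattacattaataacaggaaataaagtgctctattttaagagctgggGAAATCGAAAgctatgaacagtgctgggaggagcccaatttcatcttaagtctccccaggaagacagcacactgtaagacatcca

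The match began 36 bases before the start of Mndal and 35 before that of Ifi203. Each of these genes has another annotated start. Its window held a further ISRE match for Mndal, 54 bases before the start, and none for Ifi203. Of the 8 member windows, 3 held an ISRE match, against 3.44% of all 32851 windows. The windows of Aim2, Xaf1, Ifi35 and Ifi44 held no match to this exact pattern, and near matches were not counted.

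Among all p200 genes, 12 had a window and 9 of them an ISRE match. The 10 letters of the Mndal match stood unaltered in 7 of these genes, and in 16 of the 32851 windows in all (0.0487%). These letters were counted after the matches had been seen. The stretches below, 15 bases on each side of the match, are printed to show where members and relatives differ, with the 10 aligned bases in capitals.
Mndal: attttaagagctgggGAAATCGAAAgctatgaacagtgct
Ifi203: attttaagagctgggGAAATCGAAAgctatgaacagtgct
Ifi207: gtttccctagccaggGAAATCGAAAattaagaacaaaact
Ifi213: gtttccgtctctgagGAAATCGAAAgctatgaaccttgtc
Ifi211: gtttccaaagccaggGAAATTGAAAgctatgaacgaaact
Ifi205: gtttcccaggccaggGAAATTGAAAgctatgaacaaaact
Ifi214: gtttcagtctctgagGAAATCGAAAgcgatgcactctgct
Ifi209: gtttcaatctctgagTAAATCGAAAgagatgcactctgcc

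Counted from 1 at the first capital, Ifi211 differed from Mndal by C6T, which lies in the free bases of the pattern. Ifi209 differed from Ifi214 by G1T and therefore did not match the pattern, although the 2 promoters were identical at 287 of 299 aligned bases (96.0%). Aim2 and Ifi202b held no ISRE match. The matches are letters in a window, and binding was not measured.

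**Figure D1:**
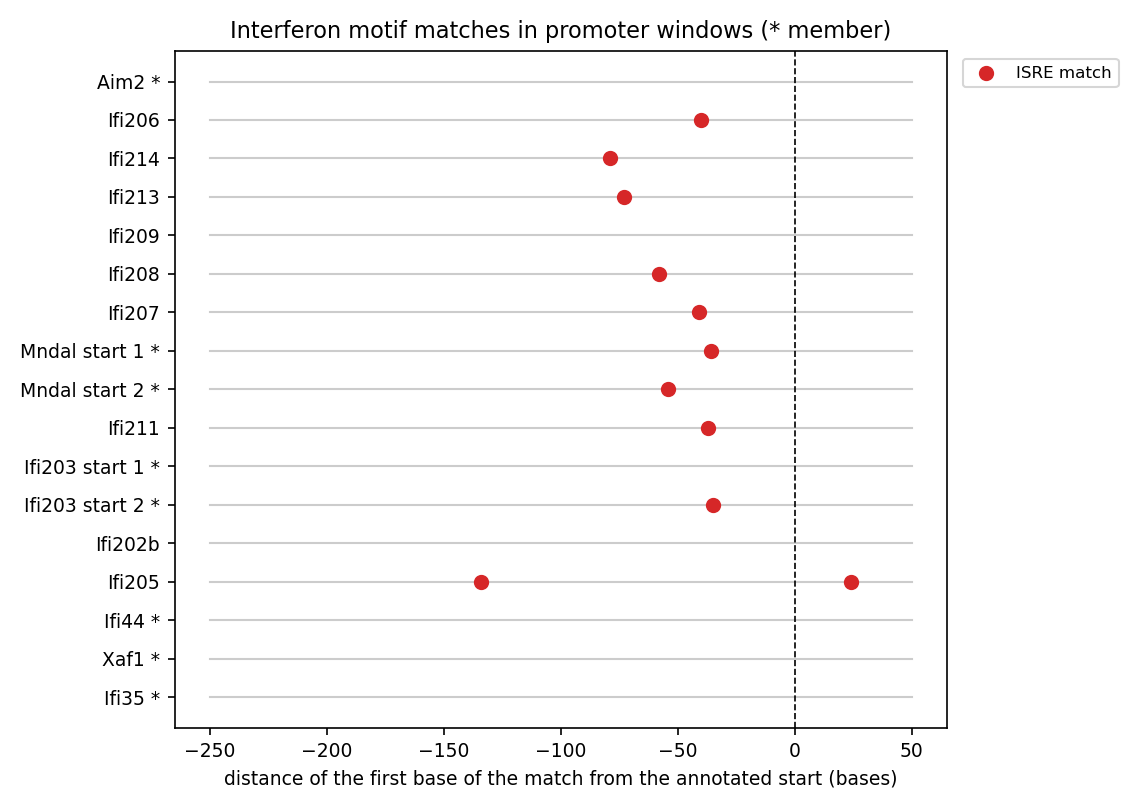
Each line is a promoter window from 250 bases before to 50 bases after an annotated start (dashed). Points mark the first base of an ISRE match, and asterisks mark the member genes. The ISRE matches of Mndal start 1 and Ifi203 start 2 lie 36 and 35 bases before the start, and Aim2, Xaf1, Ifi35 and Ifi44 have no match.

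Mndal, which encodes a p200 protein with a DNA-binding HIN domain, was brighter in Cre cells by a wide margin. Its probe set 1452231_x_at read 54.7 units in vector 1, 68 in vector 2, 495 in Cre 1 and 620 in Cre 2. The lower Cre array was thus far above the higher vector array, and the ratio was 9.05 in replicate number 1 and 9.12 in number 2. The second probe set, 1426906_at, read 17 and 35.1 in the vector arrays and 260 and 319 in the Cre arrays. Both probe sets put vector cells near or below the array medians and Cre cells above them. On the log2(signal + 16) scale used for all differences below, after quantile normalization, Cre minus vector was 2.80 ± 0.31 (limma SE, n = 2 against 2) for 1452231_x_at and 2.77 ± 0.40 for 1426906_at. An ending of _x_at marks a probe set with probes that can match other transcripts, and the close relatives of Mndal make that a possibility here. The probe set without this ending gave the nearly equal difference just stated, but whether its own probes match relatives was not tested.

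Ifi204, which encodes the mouse p204 protein, a DNA-binding regulator, was dim in control cells. Its 1 probe set read 15.4 and 15.8 units in the vector arrays, 31.7 in Cre 1 and 95.1 in Cre 2. Only Cre 2 lay above the array medians, and the ratio was 2.06 in number 1 and 6.02 in number 2. The log2 differences were 0.39 and 1.79, with a mean of 1.09. Ifi204 was below the level filter (the 50th percentile of the mean over the 4 arrays), as was Aim2.

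Aim2, the inflammasome-forming DNA sensor, read 1.4 and 1 units in the vector arrays, 2.3 in Cre 1 and 6.6 in Cre 2. Its mean lay at the 4.11th percentile of all probe sets, and its log2 differences were 0.02 and 0.47. The files hold no detection calls, and signals this low give no usable level.

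Ifi203, whose promoter is nearly that of Mndal, did not share its difference in the probe set that names it alone. Probe set 1442828_at read 71.2 units in vector 1, 54.3 in vector 2, 131 in Cre 1 and 52.5 in Cre 2. Cre 1 was the highest of the 4 and Cre 2 the lowest, so the groups overlapped. The log2 differences were 0.64 in number 1 and -0.077 in number 2, with a mean of 0.28 ± 0.36. The other 3 probe sets of Ifi203 are shared with the pseudogene Ifi203-ps and with unnamed loci, and all were below the filter. They read 24.5 and 29.1 in vector cells against 55.3 and 42.9 in Cre cells (1448775_at), 9 and 2.1 against 22.8 and 21.9 (1451567_a_at), and 9 and 8.2 against 14.9 and 20.3 (1425008_a_at). In these 3 the Cre arrays were the higher ones, at log2 differences of 0.47, 0.81 and 0.37.

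The brightest p200 signals came from shared probe sets. Probe set 1452348_s_at, annotated to Mndal, Ifi211, Ifi205 and Ifi204 together, read 450 and 274 units in the vector arrays and 1284 and 912 in the Cre arrays. Its log2 difference was 1.56 in number 1 and 1.59 in number 2, a mean of 1.58 ± 0.29. Which of the 4 genes gave the signal cannot be told from this probe set. Probe set 1452349_x_at, annotated to Ifi211 and Ifi205 and to no member, read 1167 and 831 in vector cells and 2542 and 2642 in Cre cells. Its difference of 1.40 ± 0.24 did not pass over all probe sets (limma adjusted p = 0.344). The same difference passed once the replicate number entered the model as a block (limma adjusted p = 0.00128).

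Of the 9 p200 relatives outside the list, 4 had a probe set with 1 name (Ifi202b, Ifi207, Ifi209 and Ifi213), and all 4 fell below the filter and were not tested. In Ifi207, which carries the same 10 letters as Mndal before its start, the signals were 2.6 and 12.7 units in vector cells and 11.5 and 11.4 in Cre cells. Ifi213, which carries them too, read 5.8 and 8.9 against 11.7 and 6.9. Ifi209, with the altered letter, read 21.8 and 18.6 against 45.7 and 16.6. In each of these 3 probe sets the groups overlapped. The dimmer second probe set of Ifi213, 1444405_at, read 8 and 5.5 against 0.6 and 4.4, so both Cre arrays were lower there. That of Ifi209, 1435331_at, read 5.7 and 15.7 against 13.6 and 4.9, with overlap.

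Ifi27l2a was near the bottom of the scale in vector cells and clearly measured in Cre cells. It read 6.6 and 6.2 units in vector 1 and 2, 192 in Cre 1 and 342 in Cre 2. Vector cells were far below the array medians and Cre cells above them, with ratios of 29.1 in number 1 and 55.2 in number 2. These ratios rest on vector signals below the 25th percentile of their arrays (15.6 and 11.9 units), with no detection calls, so they are no exact fold. The log2 difference with the pseudocount of 16 was 3.05 in number 1 and 4.01 in number 2, a mean of 3.53 ± 0.43. It was 4.95 with a pseudocount of 1 and 2.16 with 64, and with 64 it was below the 2.25 of Mndal.

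Ifi27, the related gene beside it, was among the bright genes of these cells already in the controls. Probe set 1452956_a_at read 1583 and 2349 units in the vector arrays and 5161 and 6036 in the Cre arrays. Its log2 difference was 1.78 in number 1 and 1.31 in number 2, a mean of 1.54 ± 0.23. The second, 1454757_s_at, read 997 and 2054 against 3308 and 5473, a difference of 1.59 ± 0.39. The 2 probe sets gave nearly the same difference and the groups did not overlap in either. Their mean signals lay at the 95.2 and 93.7th percentiles of all probe sets.

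Ifi27l2b, the third gene of that cluster, is no member and read 64.7 and 98.3 units in vector cells and 70 and 134 in Cre cells. Its difference was 0.11 ± 0.50 (95% interval -1.11 to 1.34; limma adjusted p = 0.999, and 0.89 with the replicate block). Its probe set, 1425120_x_at, has the _x_at ending described for Mndal. The gap between Ifi27l2b and Ifi27l2a was not tested.

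**Figure D2:**
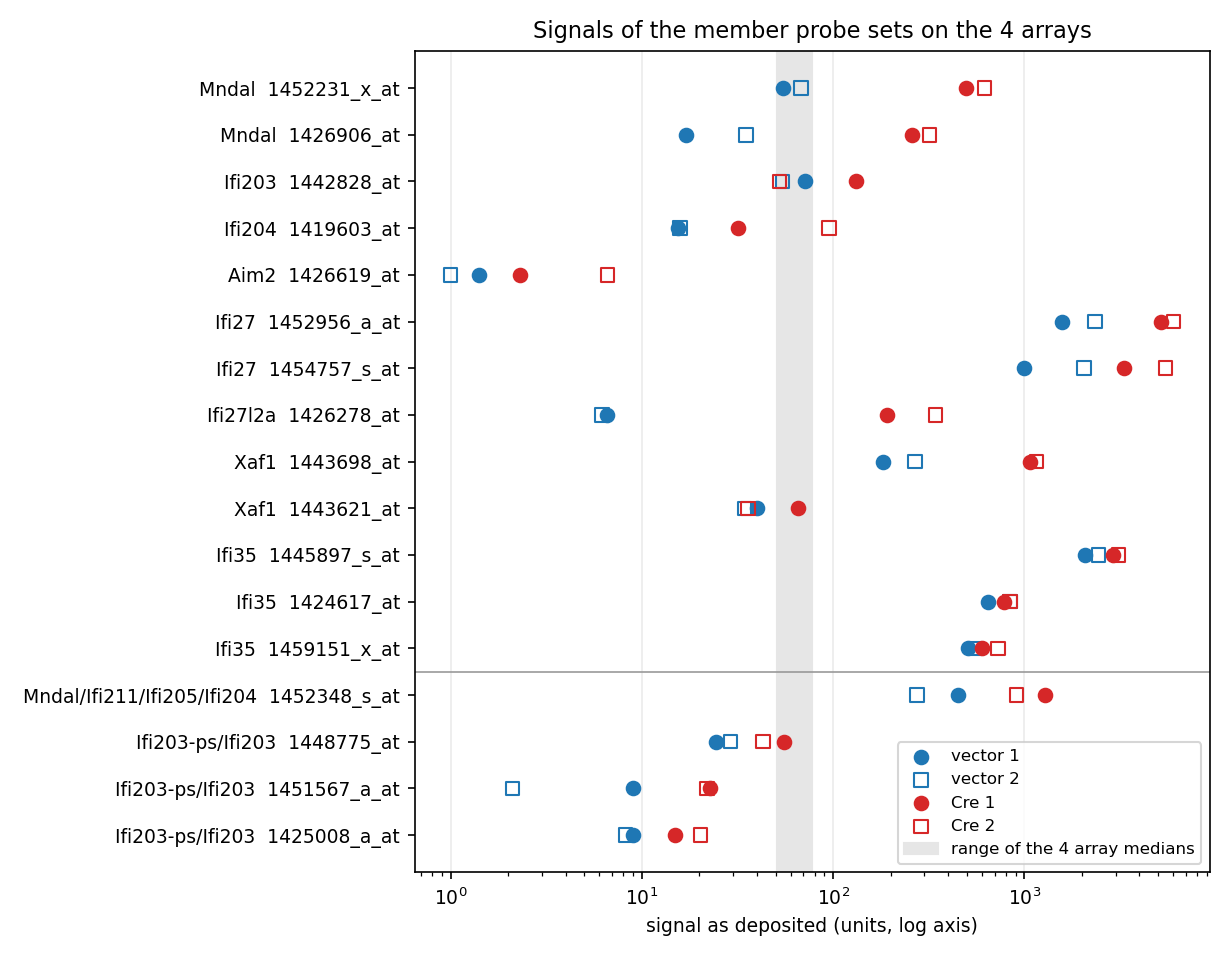
Signal as deposited (log axis) of each member probe set on the 4 arrays, vector in blue and Cre in red, number 1 as filled circles and number 2 as open squares. Shared probe sets stand below the line, and the grey band spans the array medians of 50.6 to 78 units. The Cre points of Mndal, Ifi27, Ifi27l2a and Xaf1 (1443698_at) lie to the right of both vector points, and those of Ifi203 (1442828_at) do not.

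Xaf1, the gene of the XIAP-binding factor, differed between its probe sets. Probe set 1443698_at read 182 and 269 units in the vector arrays and 1068 and 1160 in the Cre arrays, with no overlap. Its log2 difference was 2.56 in number 1 and 1.94 in number 2, a mean of 2.25 ± 0.32. Probe set 1443621_at, below the filter, read 39.8 and 34.5 against 65.5 and 35.9, so that Cre 2 lay between the vector arrays, and its difference was 0.17. Xiap, the gene of the protein that XAF1 binds, differed by 0.08 ± 0.28 (limma adjusted p = 0.999, and 0.84 with the replicate block).

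Ifi35 was bright in both genotypes and differed little. Its brightest probe set, 1445897_s_at, read 2072 and 2439 units in vector cells and 2897 and 3101 in Cre cells, a log2 difference of 0.43 ± 0.19. Probe set 1459151_x_at read 509 and 554 against 597 and 730 (0.31 ± 0.26). Probe set 1424617_at read 642 and 842 against 787 and 844, where the groups overlapped (0.18 ± 0.26). All 3 were higher in Cre cells in both numbers, by 0.03 to 0.52. Nmi, which encodes the partner of IFI35, read 190 and 149 against 404 and 288. Its difference of 0.92 ± 0.24 did not pass over all probe sets (limma adjusted p = 0.724), and it passed with the replicate block (limma adjusted p = 0.0385).

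Across the member genes, each taken by its brightest probe set with 1 name, the log2 difference ran from 0.25 (Aim2) to 3.53 (Ifi27l2a, whose place above Mndal depends on the pseudocount), with a median of 1.32. The median over the 11106 tested genes was 0.0075. Of the 17 member probe sets, 15 were higher in both Cre arrays than in both vector arrays after normalization, against 15.1% of all probe sets. In the signals as deposited it was 14, against 16.3%. The members were chosen on this contrast, so nothing is read from these counts. The medians over the 8 genes were 1.21 in number 1 and 1.55 in number 2. The gap between the numbers was widest in Ifi204 and Ifi27l2a, which differed more in number 2, whereas the difference of 5 of the 8 genes was larger in number 1.

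**Figure D3:**
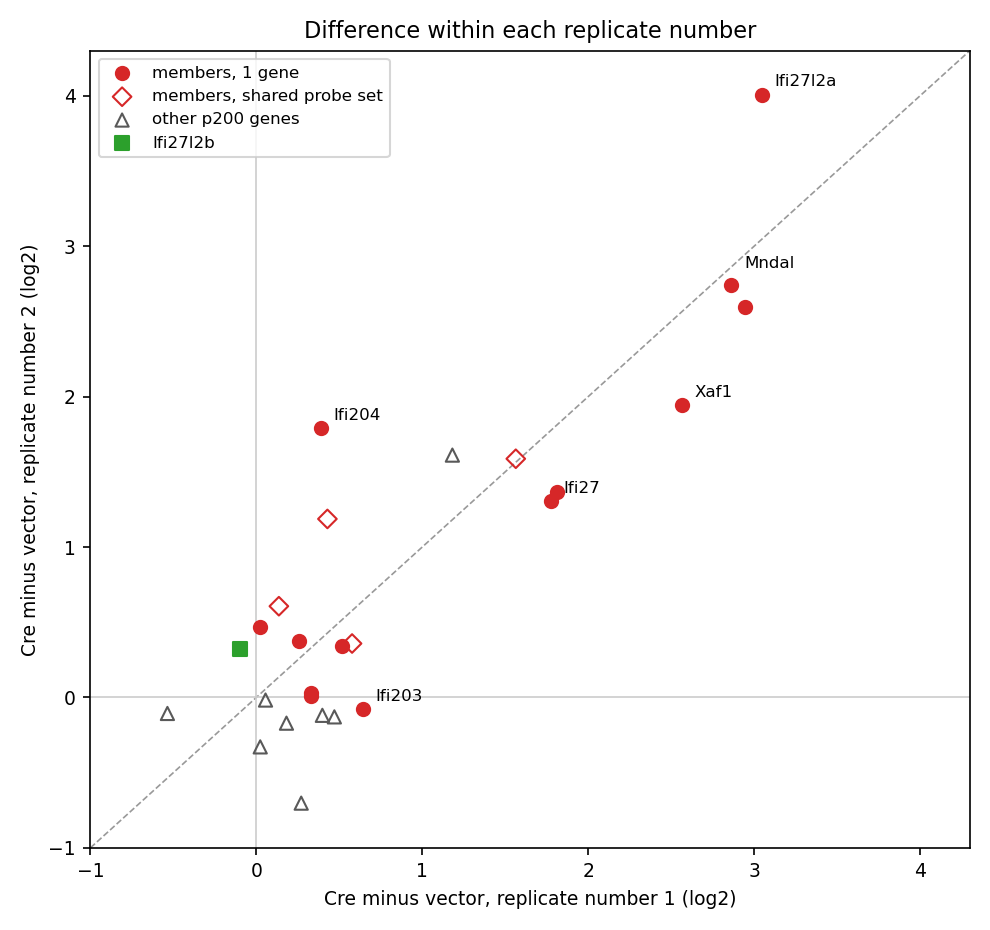
Cre minus vector (log2) in replicate number 1 (x axis) against number 2 (y axis) for each member probe set (filled circles, or diamonds where shared), other p200 probe sets (triangles) and Ifi27l2b (square), with the line of equal differences dashed. Mndal lies near the line at 2.86 and 2.74, Ifi204 and Ifi27l2a lie above it, and the p200 triangle at 1.18 and 1.61 is the probe set shared by Ifi211 and Ifi205.

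The difference between the replicate numbers was not used to choose the members. However, Ifi27l2a (6.6 and 6.2 units in vector cells) and the second Mndal probe set (17 and 35.1) passed the filter, at 63.1 units, only through the Cre arrays, so counts over the tested members are a description. After normalization, number 2 exceeded number 1 in vector cells for 7 of the 8 genes, and in Cre cells also for 7 of 8. Aim2 and Ifi203 were the respective exceptions. In vector cells the gap was only 0.01 for Ifi203 and 0.07 for Ifi27l2a, and as deposited both were lower in number 2 (71.2 and 54.3 units, and 6.6 and 6.2). The share over all genes was not computed, so nothing is read from these counts. Of the 6 genes whose brightest probe set was tested, 0 passed in limma with genotype in the model (3 at an unadjusted p under 0.05). Their adjusted p ran from 0.138 for Mndal to 0.612 for Ifi35. Over all 11 tested member probe sets 1 passed, or 9.09%, against 14.6% of all tested probe sets (7.14% higher and 7.42% lower in number 2). It was the second Ifi27 probe set, 1454757_s_at, higher in number 2 by 0.83 ± 0.15 (limma adjusted p = 0.00633), by 1.05 in vector cells and 0.61 in Cre cells. The brighter Ifi27 probe set differed by 0.32 ± 0.14 (limma adjusted p = 0.154). With each array centred on its median, 4 of the 6 genes passed, where 32.3% of all tested probe sets did, and with the scaling as deposited 1 did, where 22.8% did. Median centring put the median difference of all tested genes between the numbers at 0.32, so this comparison depends on the scaling.

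Neighbouring genes give the members' surroundings. The 5 genes with a probe set on each side of the p200 cluster, and the same for the Ifi27 cluster, were read in RefSeq gene order, a choice made after the members' values were known. Around the p200 cluster, 3 of the 10 neighbours passed the filter and 0 were called in either model, and their differences ran from -0.36 to 1.04 with a median of 0.08. The highest was Rgs7, a regulator of G-protein signalling, with 13 and 11 units in vector cells and 21.8 and 82.9 in Cre cells, below the filter. Around the Ifi27 cluster, 2 of 10 passed the filter and 0 were called in either model, with differences from -0.66 to 0.95 and a median of -0.07. The highest there was Serpina1f, with 1.4 and 3.9 units in vector cells and 29 and 16.6 in Cre cells, below the filter. Ddx24, the RNA helicase gene next to Ifi27l2a, read 1072 and 1494 in vector cells and 1027 and 1275 in Cre cells. After normalization both Cre arrays were higher in 3 of these 10 neighbours and lower in 2, against 1 and 1 of 10 around the p200 cluster. Of all probe sets, 15.1% were higher in this way, and counts this small were not tested. Most neighbours were thus too dim to test.

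**Figure D4:**
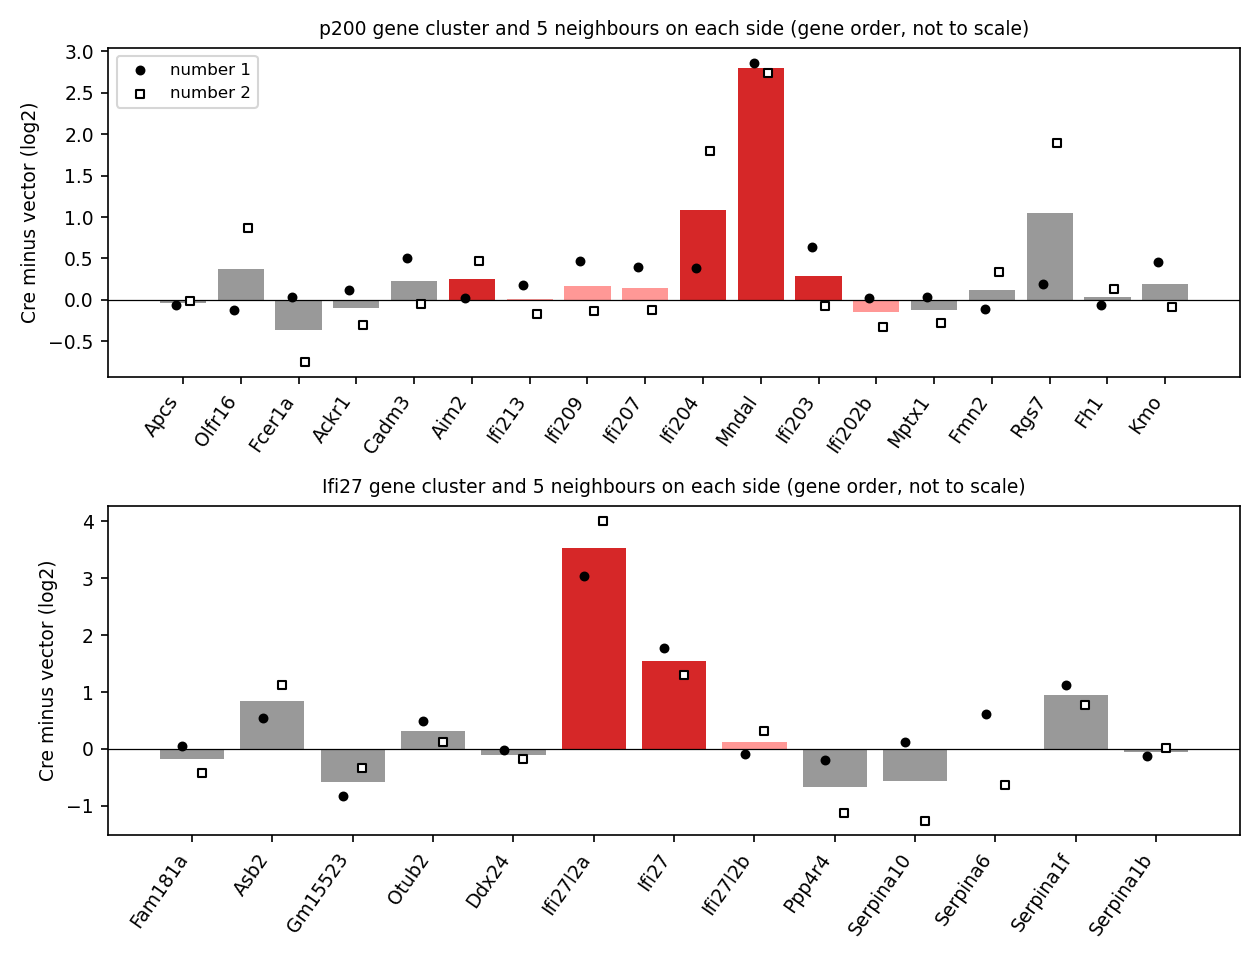
Cre minus vector (log2) for genes with a probe set in chromosomal order, for the p200 cluster (top) and the Ifi27 cluster (bottom). Bars are the mean of both numbers, filled circles number 1 and open squares number 2, with members in red, other genes of the cluster in light red and neighbours in grey. Mndal (2.80), Ifi27l2a (3.53) and Ifi27 (1.54) are the highest bars of their clusters.

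The wider interferon pathway was read through lists of genes outside the member list. Without the replicate block 0 of 58 tested genes passed over all probe sets in limma (20 at an unadjusted p under 0.05), where 0.00888% of probe sets were called higher and 0% lower. With the block, 17 rose and 0 fell, against 3.13% of tested genes called higher (2.22% of probe sets higher and 0.795% lower). Of these 17, 12 were among 18 tested interferon-stimulated genes such as Rtp4 (268 and 286 units against 940 and 1114; limma adjusted p = 0.253, and 0.000454 with the block) and Bst2 (617 and 809 against 1877 and 2089; adjusted p = 0.344 and 0.00102 in limma). That these genes were higher was known when the lists were drawn up, so this is no independent support. Among the 12, Oasl2 (44 and 49.4 units in vector cells) and Trim30a (56.7 and 50.1) also passed the filter, at 63.1 units, only through the Cre arrays.

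Of the 10 interferon ligands with a probe set, 9 fell below the filter. The exception was Ifnz, at 269 and 269 units in vector cells and 260 and 247 in Cre cells (-0.13 ± 0.24; limma adjusted p = 0.999, and 0.80 with the block). Ifnb1, the interferon beta gene, was among the dim ones and read 36.3 and 25.7 units in vector cells and 54.5 and 35.3 in Cre cells. Among receptors and their kinases, 0 of 8 tested genes passed in limma in either model, with 0 at an unadjusted p under 0.05 without the block. Their median difference was 0.06. Among the interferon transcription factors, 0 of 7 passed in either model (2 at an unadjusted p under 0.05 without the block). Irf7 read 87.5 and 95.5 units against 225 and 186 (0.97 ± 0.28; limma adjusted p = 0.809, and 0.0623 with the block), and Irf9 read 221 and 265 against 551 and 374 (0.86 ± 0.29; limma adjusted p = 0.982, and 0.0876).

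Of the inhibitors, 1 of 9 rose, with the block: Usp18, which removes ISG15 and restrains the interferon receptor, at 124 and 263 units against 566 and 698 (limma adjusted p = 0.697, and 0.00352 with the block). Of the nucleic acid sensors, 2 of 8 rose, with the block. They were the RNA sensor gene Ifih1, at 113 and 179 units against 337 and 502 (limma adjusted p = 0.857, and 0.00536), and Ddx58, at 396 and 257 against 710 and 568 (limma adjusted p = 0.776, and 0.0208). Sting1, the adaptor of cytosolic DNA sensing, differed by -0.31 (limma adjusted p = 0.999, and 0.46 with the block).

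Of 8 inflammasome genes with a probe set, 4 passed the filter and 4 did not. Gsdmd, the gene of the pore-forming gasdermin D, read 448 and 292 units in vector cells and 679 and 383 in Cre cells, and Il18, a cytokine gene, read 233 and 195 against 406 and 151. In both the groups overlapped. Pycard, the adaptor that AIM2 recruits, read 5 and 13.4 units in vector cells and 19.5 and 13.8 in Cre cells, and Casp1, the caspase it activates, read 3.6 and 2.5 against 16.7 and 19.6, both below the filter. Casp4, an inflammatory caspase gene, read 86.5 and 45.6 against 273 and 133 and rose with the block (1.32 ± 0.34; limma adjusted p = 0.719, and 0.0198).

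Many p200 genes are strongly expressed in leukocytes, so leukocyte markers were read beside them. Of 14 markers 13 had a probe set, and their summed signal as deposited was 1061 and 1014 units in the vector arrays and 1452 and 988.5 in the Cre arrays. Cre 1 also had the highest array median, at 78 units, and these sums are not normalized. A large part of the summed signal was Cd14 alone, at 539 and 408 units against 560 and 352. Ptprc (CD45), carried by all leukocytes, read 10.1 and 11.9 in vector cells and 2.9 and 4.5 in Cre cells, and Itgam read 3.3 to 6.5 over the 4 arrays. Other markers went the other way: Laptm5 read 108 and 74.9 units in vector cells and 189 and 96.5 in Cre cells, Csf1r read 143 and 163 against 194 and 222, and Cd52 read 10 and 6.1 against 40.2 and 14. The median difference of the 4 tested markers was 0.30. Of the 4 tested markers 0 passed in either model in limma, with 0 at an unadjusted p under 0.05 without the block. The part of leukocyte RNA in the members' values was not tested. All 9 preadipocyte markers with a probe set passed the filter, and 0 were called in limma in either model (1 at an unadjusted p under 0.05 without the block, Prdm16, at 60.5 and 72.7 units against 161 and 134). In 3 of the 9 both Cre arrays were lower after normalization, against 13.5% of all tested genes. In 1, Prdm16, both were higher, against 17.6%, and counts this small were not tested. The 3 were Dlk1 (5421 and 5238 against 1690 and 4882), Pdgfra (248 and 81.7 against 106 and 59.1) and Cd34 (151 and 79.4 against 99.6 and 68.7). In these signals as deposited the groups overlapped for Pdgfra and Cd34, so their place among the 3 depends on the normalization. Col1a1 was bright on every array, and Pdgfrb read 4527 and 3123 units in vector cells and 5669 and 4358 in Cre cells. In bulk RNA, fewer cells of a type and less RNA per cell cannot be told apart.

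The genes with the most similar profile were sought among 11100 tested genes outside the list, by the root mean square distance of centred log2 values over the 4 arrays from the members' median profile. The nearest were Lpin3 (0.0989), a lipin gene of lipid synthesis, and Col15a1 (0.114), a basement membrane collagen gene. Crmp1 (0.128), S100a1 (0.129) and the interferon-stimulated gene Bst2 (0.13) followed. Over 4 arrays such likeness says only that these genes differed by a similar amount in the same arrays. Lpin3 read 93.9 and 98.4 units in vector cells and 317 and 364 in Cre cells.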

How the data were processed

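Per the submitters' processing notes the signals came from MAS5, with no version or settings named. The authors deposited 1 intensity per probe set and array on a linear scale. The mean of each array, trimmed by 2% at each end, was 500.003 in these values. After leaving out 64 controls from 45101 probe sets, 34945 carried 1 gene symbol, 932 several and 9160 none. Symbols were updated by gene ID to RefSeq (GRCm38.p6; 34741 matched).

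Array medians differed by up to 0.50 on the log2(signal + 16) scale, so intensities were quantile normalized. The 22519 probe sets at or above the 50th percentile of the mean were tested with limma 3.58.1 (R 4.3.3; eBayes, trend), with Benjamini-Hochberg adjustment over all of them and a threshold of 0.05. Each gene was taken by its brightest probe set with 1 symbol. Replicate numbers were taken to pair the arrays because sex-linked transcripts follow them: Xist (1436936_s_at) read 11049 and 9810 units in number 1 and 41.8 and 58 in number 2. Deviations of same-numbered arrays had a correlation of 0.605. The model without the block is the main one, and that with the block has 1 residual degree of freedom. All SEs and intervals of Cre minus vector come from the main model, so they include differences between the replicate numbers. With 2 arrays a group, the smallest two-sided p of an exact permutation test is 0.333. The steps were tested on simulated data. Promoters were aligned with Biopython 1.88. A result that names an item withheld for evaluation is not reported here.

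The text names all members, of the other lists genes called in either model or with the smallest p (up to 4), the 5 genes of most similar profile, and Ehmt2. Others named were chosen after their values were seen. Members, lists and tests were chosen with earlier results of these data known. Alternatives were pseudocounts of 1 and 64, other level filters, the deposited scaling, median centring, other eBayes settings, the replicate block, the mean over probe sets, and leaving out each array.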

Additional observations from a re-analysis of the deposited data

Results flagged for a closer look

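In 1 member probe set the genotypes differed in opposite directions in the 2 replicate numbers. For Ifi203 (1442828_at), Cre minus vector was 0.64 in number 1 and -0.077 in number 2 on the log2 scale, and this difference was not tested, since each number holds 1 array per genotype. The signals behind it were 71.2 and 131 units in number 1 and 54.3 and 52.5 in number 2, near the array medians. Groups of 2 arrays are too small for a check of single outlying arrays.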

How the results depend on the processing

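The members' median log2 difference of 1.32 was 1.54 and 1.06 with pseudocounts of 1 and 64, 1.36 with the deposited scaling, 1.26 with median centring and 1.15 with the mean over probe sets, and ran from 1.05 (without Cre replicate 2) to 1.75 (without Cre replicate 1). The level filter and eBayes do not enter it. Of 72 recomputed differences of single genes, 62 moved by less than the spread between arrays, 9 by more, and 1 turned: Ifi203 was -0.075 without Cre replicate 1. Its values with 1 array left out ran from -0.075 to 0.63. The 9 were Ifi27l2a (4.95 and 2.16 with pseudocounts of 1 and 64, and 4.06 without Cre replicate 1), Mndal (2.25 with 64), Aim2 (1.08 with 1, and 0.03 without Cre replicate 2), Xaf1 (1.21 with the mean over its probe sets) and Ifi35 (0.31 with that mean and 0.30 with median centring). Ifi204 went from 1.09 to 0.29 without Cre replicate 2 and 1.90 without Cre replicate 1. With 2 arrays a group, leaving 1 out can hardly move a difference by more than the spread between arrays. The count of 62 therefore does not measure how far the values depend on single arrays. Median centring put the median difference of all tested genes at -0.09.

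Over all probe sets limma called 2 between the genotypes, both higher. It called 1 with a pseudocount of 1, 8 with median centring, 0 without the filter (2127 at an unadjusted p under 0.05), 0 without the trend (1028) and 5 to 26 with 1 array left out. With the replicate block it called 679, 500 higher and 179 lower, and 17 genes of the related lists in place of 0. Between the numbers, 0 of 6 member genes passed, where 14.6% of all tested probe sets did, 1 with the deposited scaling (22.8%) and 4 with median centring (32.3%). Without the trend 0.324% of probe sets passed, so that background itself depends on the setting. That comparison with an array left out was not run, since no residual degree of freedom remains. With 4 arrays and no detection calls, probe sets below the array medians, among them Aim2 and the dim p200 genes, give no firm level.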
